A study of Homo sapiens with 6 samples.

Results

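The genes described here are the 3 cytokines of the IL20 subfamily that lie side by side on chromosome 1, IL24, IL20 and IL19, and the 4 genes of their receptor subunits and of a subunit shared with related cytokines, IL20RA, IL20RB, IL22RA1 and IL10RB. They were picked by symbol, and all 7 were found among the 60623 genes of the deposited tables. The set was built around IL24 because that gene was already known to be among the most reduced in the same comparison, so the values of the 7 genes in that comparison are given as a description, without p-values. DU145 is an established human prostate cancer cell line, labelled wild type. Poly-A RNA was sequenced from 3 samples treated with DMSO, the solvent, and from 3 samples treated with 1 µM CCS1477 (inobrodib), a small molecule that occupies the bromodomain of the histone acetyltransferases p300 and CBP. Both treatments lasted 24 h, and all samples grew in the same serum-containing medium. The labels do not say whether the replicates were separate cultures, so errors and p-values cover only how far these 6 samples scatter, possibly for technical reasons, and a single line was studied.

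IL-19, IL-20 and IL-24 are secreted cytokines of the IL-10 superfamily that signal mainly to epithelial cells, and in tissues they are made by myeloid cells, T cells and keratinocytes. All of them bind a receptor of IL20RA with IL20RB, and IL-20 and IL-24 also bind IL22RA1 with IL20RB. IL10RB is the partner subunit in the receptors of IL-10, IL-22, IL-26 and the lambda interferons. Binding activates the kinases JAK1 and, depending on the receptor, TYK2 or JAK2, and then STAT3, with SOCS proteins as feedback inhibitors. IL24, also called MDA-7, was first described as a gene switched on in differentiating melanoma cells, and its overproduced protein kills many tumour cells through stress of the endoplasmic reticulum.

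Library totals ran from 8286883 to 11956748 estimated counts, so 3 counts, taken as the detection floor, equalled 0.255 to 0.367 CPM (counts scaled to a common library size with TMM factors). Of the epithelial markers EPCAM, KRT8, KRT18, KRT19 and CDH1, all 5 were expressed, with a summed level of 2270 to 2490 CPM in DMSO and 2010 to 2160 CPM in CCS1477. The prostate luminal markers KLK3, KLK2 and FOLH1 had no count in any library. CDH1 and KRT19 were lower with CCS1477, KRT19 in 7 of 14 alternatives. Of 4 fibroblast markers the sum was 14.8 to 21.7 CPM in DMSO and 14.1 to 17.2 CPM in CCS1477, with COL3A1 at 0, and of 3 endothelial markers it was at most 0.367 CPM in any library, with PECAM1 at 0.

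IL24 was the only 1 of the 3 cytokine genes with reads, and its level was far lower with CCS1477. IL24 (ENSG00000162892) lies on the plus strand of chromosome 1 from 206897443 to 206904139 in the coordinates of the files, which equal those of GENCODE 29 (GRCh38), where it has 7 transcript models, 5 of them protein-coding. DMSO libraries 1, 2 and 3 held 110, 114 and 84 IL24 counts, or 9.36, 9.73 and 10.3 CPM. CCS1477 libraries 1, 2 and 3 held 5, 15 and 5 counts, or 0.560, 1.56 and 0.570 CPM. The DMSO values lay close together, the groups did not overlap, and CCS1477 library 2 was the highest of its group. The means were 9.79 ± 0.468 CPM in DMSO and 0.896 ± 0.574 CPM in CCS1477 (SD, n = 3), a 10.9-fold difference and a log2 fold change of -3.41 ± 0.34 (SE). This was the 24th lowest of 14928 fitted log2 fold changes. From the summed counts, 308 against 25, the ratio was 10.6 with an exact 95% interval of 7.07 to 16.7 that covers counting error only. Without CCS1477 library 2 the log2 fold change was -4.08. In bulk RNA, fewer cells with the transcript and less transcript per cell cannot be told apart.

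The deposited TPM values (a share of transcripts that adjusts for transcript length) gave the same picture for IL24. They were 8.87, 7.99 and 7.56 TPM in DMSO libraries 1, 2 and 3 and 0.57, 1.56 and 0.49 TPM in CCS1477 libraries 1, 2 and 3, a 9.32-fold difference of means. The log2 difference was -3.24 on the log2(TPM + 0.1) scale and -2.33 on the log2(TPM + 1) scale, which understates changes of low genes. Immune cells are a usual source of IL24, and of 8 immune markers the defining genes PTPRC, CD3E and CD2 had no count in any library. The summed level of the 8 markers was 43.8 to 54.7 CPM in DMSO and 29.7 to 34 CPM in CCS1477, most of it CD68, a lysosomal protein gene, which fell from 44.9 ± 4.69 to 30.4 ± 2.08 CPM (SD, n = 3; edgeR adjusted p = 0.00709). CD68 did not pass on either TPM scale.

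The sequence before the start of IL24 is shown because IL24 has the largest difference among the members. Only gene-level counts were used, so which start the counted transcripts use was not measured. RefSeq (GRCh38.p14) places the 250 bases upstream of the annotated start at chr1:206897193-206897442 on the plus strand. It is printed 5′ to 3′ with the only match to the searched motifs in capitals.
IL24: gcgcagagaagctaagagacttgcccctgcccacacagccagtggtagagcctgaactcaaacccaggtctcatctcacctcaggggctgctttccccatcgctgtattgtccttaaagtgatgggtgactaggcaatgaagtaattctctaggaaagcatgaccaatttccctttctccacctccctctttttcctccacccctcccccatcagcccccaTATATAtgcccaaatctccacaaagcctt
Both strands were searched for the AP-1 letters TGANTCA, the C/EBP letters TTNNGNAA, the STAT letters TTCNNNGAA, an NF-kB motif, the TEAD letters GGAATG, the TATA-box letters TATAAA and the plain repeat TATATA, which can overlap the TATA box. The single match was that repeat, beginning 29 bases before the start, which was found in 3.73% of the 35116 RefSeq promoter windows of that length. The AP-1 letters occur in 6.57% of those windows and the C/EBP letters in 33.2%, and neither stands in the IL24 window. Among the other members, the AP-1 letters stood 107 bases before the first of 2 annotated starts of IL19 and 223 bases before the start of IL22RA1. Such a match is a run of letters and was not measured as a binding site here.

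IL20 and IL19, the neighbouring genes of the other 2 cytokines, had no count in any of the 6 libraries. IL20 (ENSG00000162891) lies from 206865354 to 206869223 and IL19 (ENSG00000142224) from 206770764 to 206842981 in the files, both on the plus strand of chromosome 1 upstream of IL24. The absence of counts allows a level of up to 0.0509 CPM over the 6 libraries together, from 3 counts and for counting error only. IL24 therefore stood alone among the 3 ligand genes at this depth, with and without CCS1477.

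IL20RB, the subunit that every IL20-subfamily receptor needs, was close to the detection floor and did not pass the count filter. IL20RB (ENSG00000174564, chromosome 3, 136946230 to 137011085, plus strand) had 16, 8 and 12 counts in DMSO libraries 1, 2 and 3, or 1.36, 0.683 and 1.47 CPM. CCS1477 libraries 1, 2 and 3 had 0, 4 and 5 counts, or 0, 0.416 and 0.570 CPM. The CCS1477 values all lay under the lowest DMSO value. The summed counts, 36 against 9, gave a ratio of 3.46 with an exact 95% interval of 1.63 to 8.16 for counting error only, and a fit without the filter gave a log2 fold change of -1.76 ± 0.77 (SE).

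IL20RA, which joins IL20RB in the type I receptor and IL10RB in the IL-26 receptor, was lower still. IL20RA (ENSG00000016402, chromosome 6, 136999971 to 137045180, minus strand) had 3, 1 and 6 counts in DMSO libraries 1, 2 and 3 and 4, 1 and 0 counts in CCS1477 libraries 1, 2 and 3. The groups overlapped. The ratio of summed counts was 1.73 with an exact 95% interval of 0.538 to 6.44, so a difference in either direction was not detectable at this depth.

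IL22RA1, which joins IL20RB in the type II receptor and IL10RB in the IL-22 receptor, was better expressed than IL20RA. IL22RA1 (ENSG00000142677, chromosome 1, 24119771 to 24143140, minus strand) stood at 7.66, 4.10 and 5.27 CPM in DMSO libraries 1, 2 and 3 and at 3.81, 4.68 and 2.74 CPM in CCS1477 libraries 1, 2 and 3. DMSO library 1 was the highest, and CCS1477 library 2 lay above DMSO library 2, so the groups overlapped. The means were 5.67 ± 1.82 and 3.74 ± 0.971 CPM (SD, n = 3), with a log2 fold change of -0.60 ± 0.30 (SE), which was -0.30 without DMSO library 1.

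IL10RB, the shared partner subunit, was the most abundant member and differed little between the groups. IL10RB (ENSG00000243646, chromosome 21, 33266367 to 33310187, plus strand) stood at 27.7, 31.1 and 21.2 CPM in DMSO libraries 1, 2 and 3 and at 27.8, 34.3 and 30.7 CPM in CCS1477 libraries 1, 2 and 3. The groups overlapped, with DMSO library 3 the lowest, and the log2 fold change was 0.21 ± 0.15 (SE). The gene shares exons with a readthrough model that spans it and IFNAR2 (IFNAR2-IL10RB, ENSG00000249624, 33229901 to 33297160), and its deposited counts were not whole numbers. The readthrough model took 32.4% to 57.5% of the summed counts of both in DMSO and 24.8% to 38.9% in CCS1477. Their sum was 49.3 ± 3.04 CPM in DMSO and 45.4 ± 0.231 CPM in CCS1477 (SD, n = 3), so that the sign of the IL10RB difference depended on how these reads were split.

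**Figure D1:**
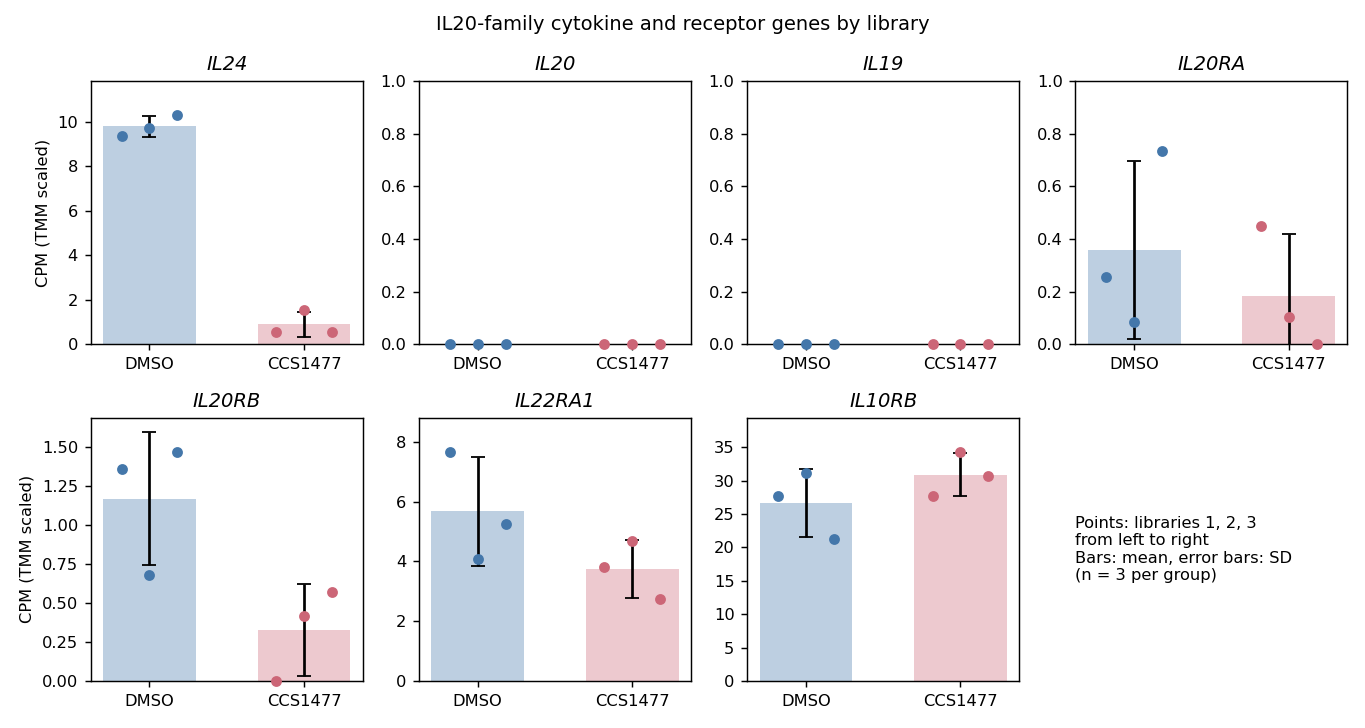
Level of each of the 7 genes in CPM scaled with TMM factors, for 3 DMSO and 3 CCS1477 libraries (points, libraries 1 to 3 from left to right), with bars for the mean and error bars for the SD, each panel on its own axis from 0. IL24 falls from 9.36 to 10.3 CPM in DMSO to 0.560 to 1.56 CPM in CCS1477, IL20 and IL19 lie at 0 throughout, and the points of IL20RA, IL22RA1 and IL10RB overlap between the groups.

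Of the 7 members, 3 passed the count filter (IL24, IL22RA1 and IL10RB), IL24 only through its DMSO level. The edgeR fit over all 14928 tested genes called 1 of these 3, IL24, lower and 0 higher at an adjusted p under 0.05, where 10.7% of all tested genes were called lower, 7.23% higher and 17.9% in either direction. IL24 was called lower, and IL22RA1 and IL10RB were not called, in all 14 alternatives as well. IL24 was also the only 1 of the 3 whose groups did not overlap, against 35.9% of all tested genes in either direction and 19.3% with the CCS1477 values lower. Because this comparison chose the set, nothing is read from these counts.

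Per length, the order of the members in DMSO was IL10RB at 20.9 ± 4.58 TPM, IL24 at 8.14 ± 0.668 TPM, IL22RA1 at 2.87 ± 0.985 TPM, IL20RB at 0.983 ± 0.391 TPM and IL20RA at 0.223 ± 0.163 TPM (SD, n = 3), with IL20 and IL19 at 0. The ranges of neighbours in this order did not overlap down to IL20RA. In CCS1477, IL10RB at 25.7 ± 3.02 TPM stayed apart from the rest, and IL22RA1 at 1.98 ± 0.528 TPM now came before IL24 at 0.873 ± 0.596 TPM (SD, n = 3). The ranges of IL22RA1 and IL24 overlapped there, as did those of IL24 and IL20RB and those of IL20RB and IL20RA, while IL24 and IL20RA stayed apart. Against the tested genes, IL24 stood at the 34.1 percentile of mean TPM in DMSO and at the 3.70 percentile in CCS1477, whereas IL10RB stood at 57.0 and 61.7.

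Read as receptor pairs, the transcripts of the IL20-subfamily receptors each had a subunit near the floor. For the type II receptor of IL-20 and IL-24, IL20RB was the lower of the pair in 6 of 6 libraries, at 0.56 to 1.33 TPM in DMSO and 0 to 0.5 TPM in CCS1477. For the type I receptor, IL20RA was the lower in 5 of 6 libraries, and the lower subunit stood at 0.04 to 0.35 TPM in DMSO and 0 to 0.04 TPM in CCS1477. In the receptors built on IL10RB, the subunit paired with IL10RB was the lower in 6 of 6 libraries. IL20RA, for IL-26, lay near the floor here too, at 0.04 to 0.35 TPM in DMSO and 0 to 0.37 TPM in CCS1477. IL22RA1, for IL-22, stood at 2.15 to 3.99 TPM in DMSO and 1.42 to 2.47 TPM in CCS1477. IFNLR1, for the lambda interferons, stood at 4.33 to 4.75 TPM in DMSO and 3.92 to 6.9 TPM in CCS1477, and IL10RA, for IL-10, at 0.97 to 2.3 TPM and 2.26 to 3.34 TPM. These are RNA levels, and receptor protein was not measured.

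**Figure D2:**
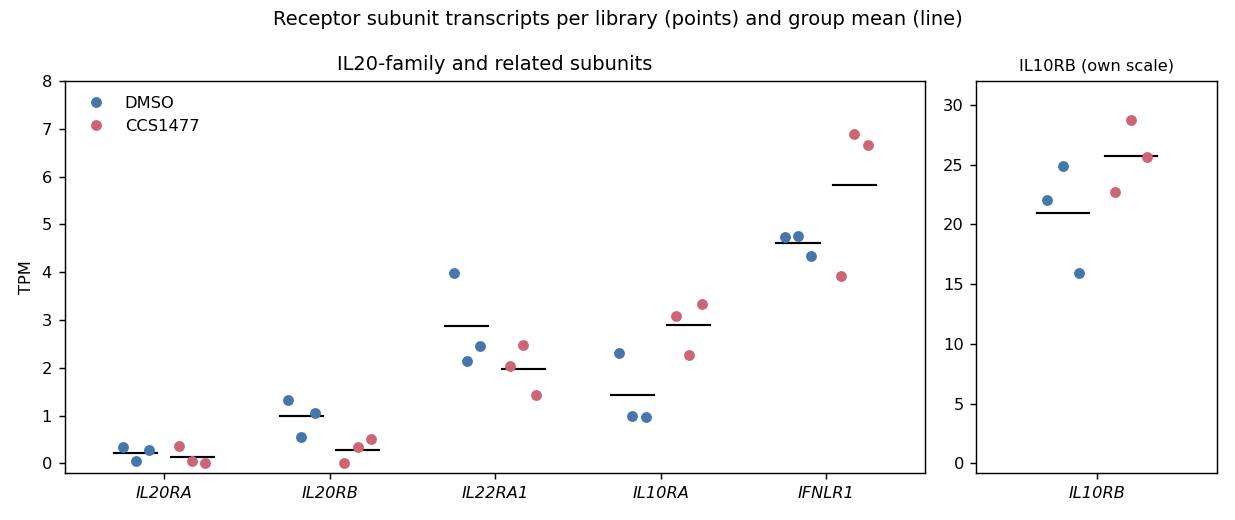
TPM of receptor subunit genes in each library (points) with the group mean (line), for DMSO and CCS1477, with IL10RB on its own axis. IL20RA and IL20RB lie at or under 1.33 TPM in all 6 libraries, and IL10RB lies between 15.9 and 28.75 TPM.

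The other cytokines of the wider family were silent as well. Of 9 further family genes, IL10, IL22, IL26, IFNL1, IFNL2, IFNL3 and the decoy receptor gene IL22RA2 had no count in any library. The 2 that were tested, IFNLR1 and IL10RA, did not pass in edgeR, where 0 of 2 had an unadjusted p under 0.05, or in DESeq2. IFNLR1 had a log2 fold change of -0.24 ± 0.18 in counts (SE, edgeR adjusted p = 0.406), but 0.25 with limma on log2(TPM + 1) and 0.29 with limma on log2(TPM + 0.1), so its direction was not settled. IL10RA averaged 2.32 ± 0.562 CPM without and 2.73 ± 0.655 CPM with CCS1477 (SD, n = 3; edgeR adjusted p = 0.702).

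Within 300 kb of IL24, the neighbours called lower lay on 1 side of the gene. Within 300 kb lie 21 further genes besides IL20 and IL19, of which 11 had no count and 7 were tested. The 3 tested genes before IL24, EIF2D, DYRK3 and the stress kinase gene MAPKAPK2, had log2 fold changes of -0.11 ± 0.10, 0.14 ± 0.13 and -0.18 ± 0.10 (SE) and did not pass. Of the 4 tested genes after it, 3 were lower, against 10.7% of all tested genes. These genes are not independent of the choice of IL24 as a starting point, and the difference between the 2 sides was not tested.

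FCMR, the gene of the IgM Fc receptor, is the nearest of them. Its levels were 9.10, 9.39 and 9.92 CPM in DMSO libraries 1, 2 and 3 and 3.13, 3.22 and 1.82 CPM in CCS1477 libraries 1, 2 and 3, without overlap, and its log2 fold change was -1.79 ± 0.25 (SE, edgeR adjusted p = 0.000582). In the coordinates of the files, FCMR runs on the minus strand from 206903317 to 206923247 and overlaps the 3′ end of IL24 by 823 bases, while in GENCODE 29 the genes are 246 bases apart. The strandedness of the counting is not given in the sources used here, so reads in the overlap cannot be told apart. FCMR and IL24 had similar counts in DMSO (107, 110 and 81 for FCMR), but FCMR had more than IL24 in each CCS1477 library, with 28, 31 and 16.

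C1orf116, which encodes an androgen-regulated protein known as SARG, showed the largest difference among the tested neighbours of IL24. It stood at 30.0, 30.7 and 25.4 CPM in DMSO libraries 1, 2 and 3 and at 8.62, 6.44 and 5.47 CPM in CCS1477 libraries 1, 2 and 3, a log2 fold change of -2.07 ± 0.18 (SE, edgeR adjusted p = 1.8e-05). PFKFB2, which makes and degrades a regulator of glycolysis, fell from 38.9 ± 3.64 to 28.1 ± 2.16 CPM (SD, n = 3; edgeR adjusted p = 0.0194), and YOD1, a deubiquitinase gene beside it, did not pass (log2 fold change -0.25 ± 0.12, SE). The PFKFB2 call ended on both TPM scales and without DMSO library 2, CCS1477 library 1 or CCS1477 library 2. PIGR and FCAMR, the immunoglobulin receptor genes between FCMR and C1orf116, had no count in any library, DMSO included, so no difference could be seen there. IKBKE, a kinase gene 274 kb before IL19, fell from 21.7 ± 2.42 to 11.9 ± 0.294 CPM (SD, n = 3; edgeR adjusted p = 0.00199), but not on either TPM scale.

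The upstream sequences of these 2 neighbours are shown beside that of IL24 because their transcripts were lower in the same libraries. Each is the 250 bases before the first annotated RefSeq start (GRCh38.p14), 5′ to 3′ on the minus strand, at chr1:206923197-206923446 for FCMR and chr1:207032757-207033006 for C1orf116, with matches to the same motifs in capitals.
FCMR: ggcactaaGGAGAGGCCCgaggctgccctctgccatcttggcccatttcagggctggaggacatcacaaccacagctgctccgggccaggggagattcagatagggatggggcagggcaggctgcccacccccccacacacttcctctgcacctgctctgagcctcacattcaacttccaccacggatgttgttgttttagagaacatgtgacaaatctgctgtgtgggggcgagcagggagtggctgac
C1orf116: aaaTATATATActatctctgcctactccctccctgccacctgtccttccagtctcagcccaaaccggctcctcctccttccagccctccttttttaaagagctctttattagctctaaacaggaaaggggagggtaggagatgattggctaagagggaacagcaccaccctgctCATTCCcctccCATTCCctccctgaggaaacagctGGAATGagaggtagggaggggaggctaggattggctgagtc
FCMR held 1 match, to the NF-kB letters, which 54.4% of all windows hold. C1orf116 held 3 matches to the TEAD letters GGAATG, beginning 76, 65 and 41 bases before the start, against 11.9% of windows with at least 1, and overlapping TATATA runs far upstream. No searched motif was common to the IL24, FCMR and C1orf116 windows.

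**Figure D3:**
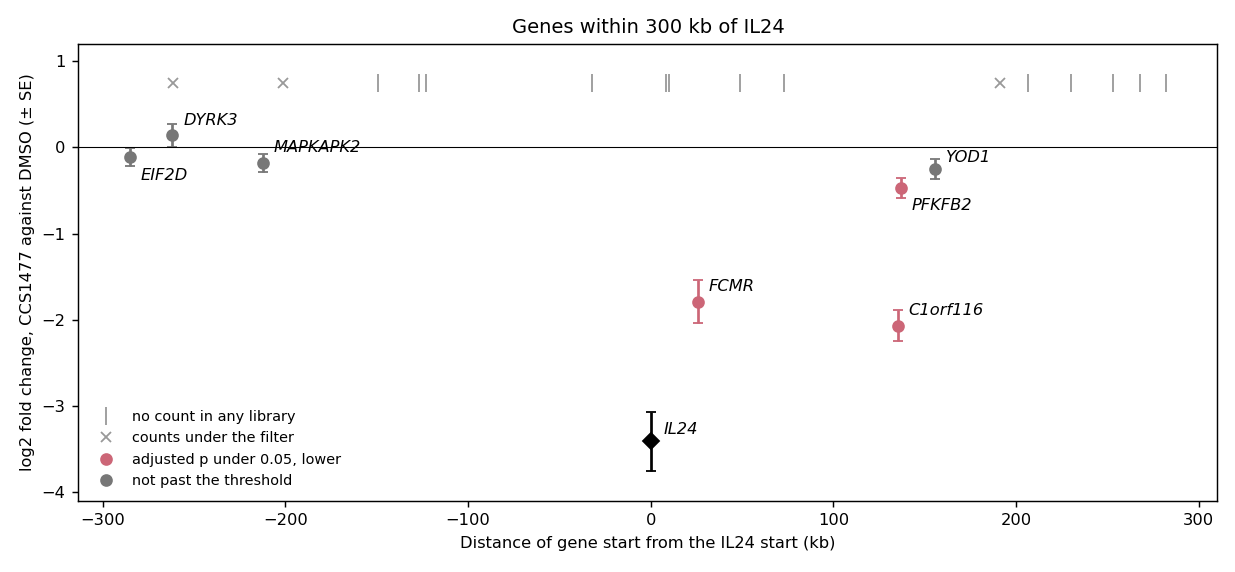
Log2 fold change with its SE for the tested genes within 300 kb of IL24, against the distance of each gene's start from the IL24 start in kb. FCMR at -1.79, C1orf116 at -2.07 and PFKFB2 at -0.47 lie after IL24 (diamond, -3.41), the genes before it lie within 0.18 of 0, and ticks and crosses mark genes without counts or under the count filter.

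The tested genes within 300 kb of the receptor genes were read against 17.9% called in either direction among all tested genes. Beside IL10RB, 0 of 12 tested genes passed in edgeR, although 1 higher and 3 lower had an unadjusted p under 0.05 and DESeq2 called 1 lower. The interferon receptor gene IFNAR2, 0.692 kb before IL10RB, had a log2 fold change of -0.20 ± 0.09 (SE, edgeR adjusted p = 0.152), and the overlapping IFNAR2-IL10RB model one of -0.64 ± 0.23 (SE, edgeR adjusted p = 0.0785). Beside IL22RA1, 1 of 7 tested genes was higher, the lysosomal fucosidase gene FUCA1 at 0.56 ± 0.13 (SE, edgeR adjusted p = 0.0118), and IFNLR1, the closest at 11.0 kb, did not pass. Beside IL20RA, 1 of 3 was lower, the stress kinase gene MAP3K5 at -0.87 ± 0.17 (SE, edgeR adjusted p = 0.00406), and PEX7, the closest tested gene, stood at -0.09 ± 0.23. Beside IL20RB, 1 of 4 was higher, SLC35G2 at 0.48 ± 0.12 (SE, edgeR adjusted p = 0.0144), and NCK1, whose annotated end overlaps IL20RB, stood at -0.21 ± 0.13. The FUCA1, MAP3K5 and SLC35G2 calls ended on both TPM scales, and that of SLC35G2 also without DMSO library 1, CCS1477 library 2 or CCS1477 library 3.

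Downstream of these receptors, the kinase genes did not pass. Some STAT genes and the feedback gene SOCS2 were called lower, and the inhibitor gene PIAS3 was called higher. Of 17 listed signalling genes, 16 were tested, 4 were lower, 1 was higher and 11 did not pass, with a median log2 fold change of 0.03, against 10.7% lower, 7.23% higher and a median of 0 over all tested genes. JAK1, TYK2 and JAK2, the receptor-bound kinases, had log2 fold changes of 0.26 ± 0.11, 0.19 ± 0.09 and 0.13 ± 0.22 (SE). JAK1 passed only without DMSO library 2, at 0.38, and JAK2 turned to -0.03 without DMSO library 1 and to -0.07 without CCS1477 library 1.

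STAT3, the main transducer of these cytokines, fell from 331 ± 26.0 to 263 ± 7.05 CPM (SD, n = 3; edgeR adjusted p = 0.0201). SOCS2, a feedback inhibitor, fell from 31.1 ± 3.28 to 16.6 ± 0.588 CPM (SD, n = 3; edgeR adjusted p = 0.000654), and STAT5A fell from 9.82 ± 0.265 to 5.32 ± 0.796 CPM (SD, n = 3; edgeR adjusted p = 0.00949). PIAS3, an inhibitor of STAT3, rose from 72.2 ± 6.95 to 115 ± 1.96 CPM (SD, n = 3; edgeR adjusted p = 0.000624). SOCS3, the usual STAT3 feedback gene, averaged 31.2 ± 4.83 CPM without and 23.2 ± 3.44 CPM with CCS1477 (SD, n = 3; edgeR adjusted p = 0.0790), and passed without a filter and without DMSO library 2. The SOCS2 and PIAS3 calls held in all 14 alternatives, that of STAT5A in 11 and that of STAT3 in 6.

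Genes that IL-20 family cytokines and IL-22 are known to induce in keratinocytes and other epithelia included 5 called lower and 4 without a count. Of 16 such genes, 8 were tested, and 5 of these were lower, 0 higher and 3 not past the threshold, against 10.7% lower and 7.23% higher among all tested genes. The median log2 fold change was -1.18, and 0 of the 8 were higher by an unadjusted edgeR p under 0.05 or by DESeq2. This list, like the other gene lists here, was chosen with earlier results of these data known, so nothing is read from the count or the median. S100A9, a calcium-binding alarmin, stood at 3.83, 2.05 and 5.76 CPM in DMSO libraries 1, 2 and 3 and at 0, 0.104 and 0.342 CPM in CCS1477 libraries 1, 2 and 3. It passed the count filter only through its DMSO level, with 0, 1 and 3 counts in the CCS1477 libraries, so its call and its part in the count and median above are a description. The chemokine gene CCL20 fell from 9.08 ± 2.33 to 1.61 ± 0.581 CPM (SD, n = 3). CCS1477 libraries 1, 2 and 3 held 9, 16 and 19 CCL20 counts. CCL20 too passed the count filter only through its DMSO level, so its call is likewise a description. LCN2, an iron-scavenging antibacterial protein gene, fell from 29.5 ± 5.78 to 9.35 ± 0.448 CPM (SD, n = 3; edgeR adjusted p = 6.6e-05). CXCL8 and VEGFA were the other 2 lower genes, and CXCL1, HBEGF and MMP1 did not pass. All 5 calls held in all 14 alternatives.

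The remaining 8 genes of that list lay under the filter. S100A7, S100A8, KRT6B and DEFB4A had no count in any library. KRT6A had 0 counts over the DMSO libraries and 3 in CCS1477 library 1 alone, and MMP3 had 0 and 1, both at or under the floor. The stress keratin gene KRT16 had 24 counts over the DMSO libraries and 0 over the CCS1477 libraries. Set against a floor of 3 counts over the CCS1477 group, the ratio was 6.91, which leaves out the counting error of the 24 DMSO counts. The protease inhibitor gene PI3 had 21 and 5 counts, a ratio of 3.63 with an exact 95% interval of 1.33 to 12.3 for counting error only. Many of these genes respond to other signals too, and whether IL-24 acts on them in these cells was not tested.

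The next list held genes tied to the intracellular action of IL24 protein. Of 10 listed, all were tested, 1 was higher, 1 lower and 8 did not pass, against 17.9% called in either direction among all tested genes, and the median log2 fold change was -0.19. MCL1, an anti-apoptotic gene, rose from 753 ± 51.4 to 1030 ± 10.4 CPM (SD, n = 3; edgeR adjusted p = 0.00274), and BCL2L1, another, fell from 202 ± 37.9 to 144 ± 10.9 CPM (SD, n = 3; edgeR adjusted p = 0.0208). The BCL2L1 call ended on both TPM scales and without DMSO library 1, CCS1477 library 1 or CCS1477 library 3.

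Known regulators of IL24 transcription and mRNA decay moved in both directions. Of 11 listed genes, all tested, 4 were higher, 2 lower and 5 not past the threshold, against 7.23% higher and 10.7% lower among all tested genes, and the median log2 fold change was 0.07. FOSL2, an AP-1 subunit gene, fell from 263 ± 5.56 to 167 ± 13.2 CPM (SD, n = 3; edgeR adjusted p = 0.000408), and CEBPB, a C/EBP factor gene, fell from 118 ± 33.7 to 69.3 ± 12.9 CPM (SD, n = 3; edgeR adjusted p = 0.0157). ZFP36, which promotes decay of AU-rich mRNAs, rose from 38.6 ± 4.04 to 62.2 ± 7.75 CPM (SD, n = 3; edgeR adjusted p = 0.00300). The AP-1 subunit genes JUN, JUNB and JUND were higher at 0.47 ± 0.13, 0.42 ± 0.12 and 0.53 ± 0.16 (SE). HNRNPD, whose protein AUF1 binds the IL24 mRNA, had a log2 fold change of -0.08 ± 0.21 (SE) with 1 DMSO library apart, and stood at 0.30 with an edgeR adjusted p = 0.0377 without DMSO library 3. The FOSL2 and ZFP36 calls held in all 14 alternatives. The calls of CEBPB, JUN, JUNB and JUND held in 10, 9, 7 and 8 of the 14 and ended on both TPM scales.

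**Figure D4:**
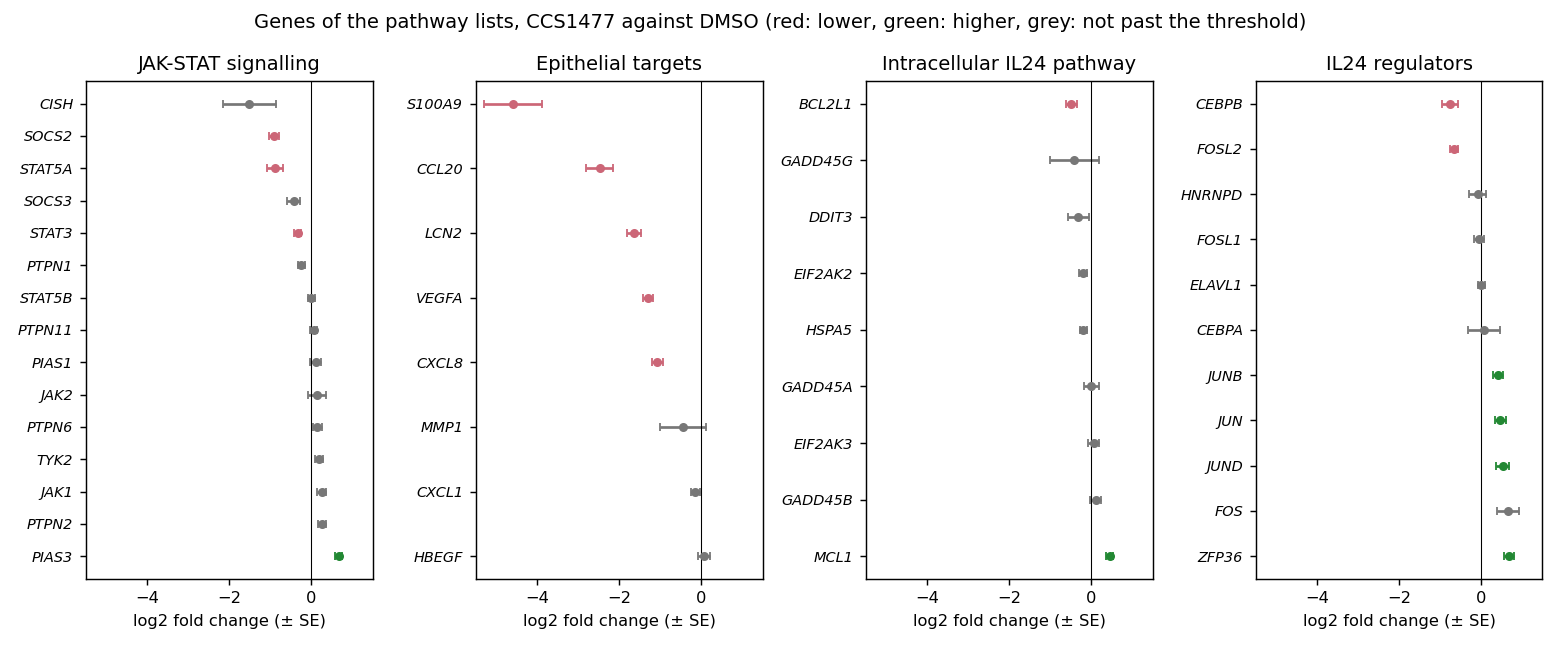
Log2 fold change with its SE for tested genes of the 4 lists (JAK-STAT signalling, epithelial targets, genes of intracellular IL24 action and IL24 regulators), coloured by the edgeR call. The epithelial targets extend to -4.59 for S100A9, whereas the tested genes of the other lists lie between -1.51 (CISH, not past the threshold) and 0.69.

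The genes with the profile nearest to that of IL24 also dropped in the CCS1477 libraries. Likeness was the Euclidean distance between centred log2 CPM profiles over the 6 libraries, among tested genes with a mean of at least 1 CPM. With 3 libraries in each of 2 groups it mainly reflects the size of the drop on that scale, so it is a description. A small count was added before taking logs, which shrinks the drops of genes with few counts. The fitted log2 fold changes of the 8 nearest genes ran from -5.39 (PLAAT4) to -3.03 (C1S), against -3.41 for IL24. SGK2, a kinase gene, was nearest at a distance of 0.39, with 2.21, 2.30 and 3.43 CPM in DMSO libraries 1, 2 and 3 and 0, 0.312 and 0 CPM in CCS1477 libraries 1, 2 and 3. The SGK2 value in CCS1477 library 2 equalled the floor of 3 counts there, so no shared library pattern is read from it. PLAAT4 at 0.64 and VXN at 0.69 followed, and then DEPP1 at 0.79, with 12.1, 11.3 and 9.31 CPM in DMSO and 1.01, 2.29 and 0.456 CPM in CCS1477. The remaining 4 of the 8 nearest were SHISAL1, MYO1G, the complement protease gene C1S and COL17A1, a collagen gene of epithelial anchoring junctions. In CCS1477 libraries 1, 2 and 3, PLAAT4 (0, 0.104 and 0 CPM) and VXN (0.224, 0.312 and 0.114 CPM) also lay at or under the floor. MYO1G stood at 0, 0.416 and 0 CPM there. Over the 6 libraries, which share the 2 treatments, Pearson's r with IL24 ran from 0.971 to 0.996 for the 8 genes. They were picked by closeness on these same values, so a high r was set in advance and nothing is read from it.

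**Figure D5:**
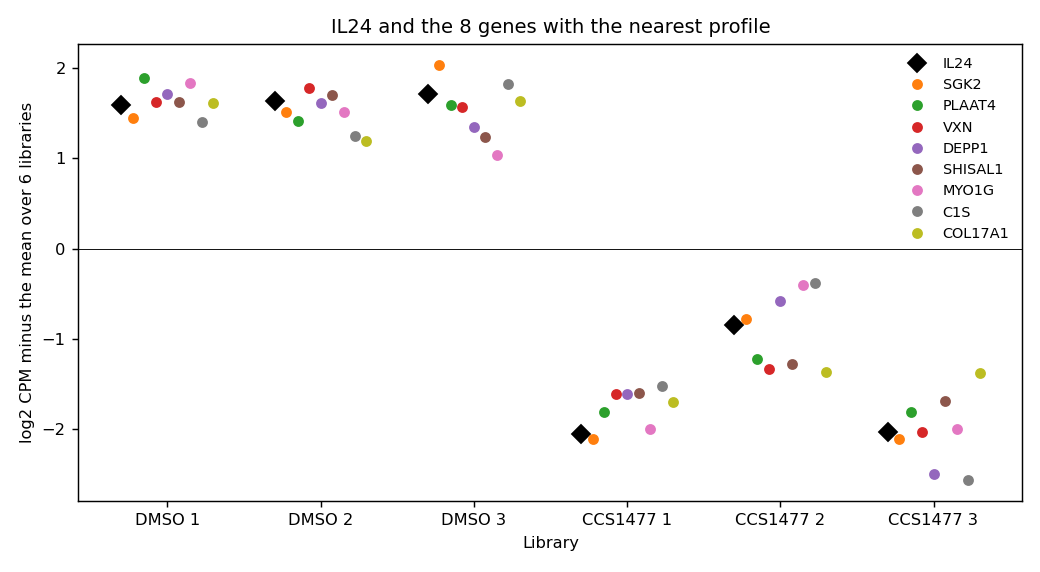
Centred log2 CPM of IL24 and the 8 nearest genes in each of the 6 libraries (points). All 9 genes lie above their mean in the 3 DMSO libraries and below it in the 3 CCS1477 libraries.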

How the data were processed

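Poly-A RNA of 3 DMSO and 3 CCS1477 samples was analysed, grouped by the labels. The authors deposited estimated counts per gene, of which 10.2% to 10.7% were not whole, and TPM values, which keep no depth. Reads were trimmed with Trimmomatic 0.39, per the submitters' processing notes. For the aligner, quantifier, genome build and strandedness, nothing is stated in the labels or headers. Counts were rounded and fitted in edgeR 4.0.16 (R 4.3.3) with TMM factors, a filter of 10 counts in a library of median size and 15 in total, and the quasi-likelihood test. P-values were adjusted by the Benjamini-Hochberg method over all 14928 tested genes, with a threshold of 0.05. The SE was derived from the log2 fold change and its F statistic. Alternatives used RLE factors, library size alone, DESeq2 1.42.0, no filter, a filter of 20 counts in 3 libraries, limma 3.58.1 on log2(TPM + 1) and log2(TPM + 0.1), the replicate number as a block, and each library left out. Intervals of count ratios are exact at 95% and, like the floor of 3 counts, cover counting error only. In simulated data, 200 of the 14928 genes were changed, drawn from those with a mean of at least 20 counts. Of these changes, 88.7% of the 2-fold and 98.7% of the 4-fold ones were recovered, with 4.72% false calls. Counts were drawn with the scatter typical of each expression level, without extra scatter particular to a gene. Fewer genes were changed than were called in the real data, so these rates hold for that simpler setting only. Recovery of changes in genes with fewer counts was not simulated. The members and lists (other family genes, receptor signalling, epithelial targets, intracellular IL24, IL24 regulators and cell type markers) were chosen with earlier results of these data known. Text names members, genes of these lists, tested neighbours within 300 kb and the 8 genes most like IL24. Some genes counted in these lists are not reported here by name, and are not plotted.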

Additional observations from a re-analysis of the deposited data

How the results depend on the processing

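IL24 kept its direction and its call in all 14 alternatives, from -4.08 to -2.33, and from -4.08 to -3.16 with 1 library left out. IL22RA1 ran from -0.79 to -0.30 and IL10RB from 0.07 to 0.34 with 1 library left out. Over all genes, 293 were higher and 427 lower on the log2(TPM + 1) scale, 280 and 410 on the log2(TPM + 0.1) scale, and 487 to 1311 and 925 to 1772 with 1 library left out, against 1079 and 1597. On both TPM scales receptor signalling had 1 lower gene, the intracellular IL24 list 0 lower, and the IL24 regulators 1 higher and 1 lower. With library size alone, receptor signalling had 2 higher genes. With 1 library left out, receptor signalling had 1 to 3 higher and 1 to 5 lower, the intracellular list 0 to 2 lower, and the regulators 1 to 4 higher and 1 to 2 lower. The epithelial targets had 0 higher in every alternative and 5 lower in each except without a filter, where 6 of 12 were lower. HNRNPD turned to 0.14 on both TPM scales, to 0.30 without DMSO library 3 and to 0.01 without CCS1477 library 1, and ran from -0.24 to 0.30 with 1 library left out. IFNLR1 turned to 0.25 and 0.29 on the TPM scales, and JAK2 to -0.03 without DMSO library 1 and -0.07 without CCS1477 library 1, from -0.07 to 0.36 with 1 library left out. The cause was not tested. Same-numbered libraries deviated with correlations of -0.087, -0.196 and -0.007, and none correlated best with its own number, so the numbers were not taken to pair samples. With the replicate block 799 genes were higher and 1306 lower, receptor signalling had 2 lower genes, and STAT3 (edgeR adjusted p = 0.0506) and JUNB (0.0564) were among the genes that lost their calls. Depth limits IL20RA and IL20RB, which lay near the floor.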
